A study of Homo sapiens with 18 samples.

Results

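Neutrophil granule proteins are the antimicrobial enzymes and packaging proteins that myeloid cells store for release against microbes. The genes described here were chosen by name: 10 symbols were listed (MPO, ELANE, AZU1, PRTN3, CTSG, LYZ, SRGN, BPI, RNASE2 and CST7), and 9 of them have a probe with a single gene symbol among the 17687 symbols measured. The choice was made with earlier results of these data known. No probe was matched to ELANE, which encodes neutrophil elastase, and it is not analysed here. Each of the 9 genes has 1 probe. The cells were OCI-AML3, an established human acute myeloid leukaemia line with a genotype labelled wildtype, cultured in RPMI medium with fetal calf serum. They received DMSO, the solvent control, or an inhibitor of MDM2 for 24 h. The inhibitors were RG7112, given at 2 µM, and HDM201, given at 500 nM. Each of the 3 groups holds 6 arrays, labelled as biological replicates of 1 cell line. The labels do not say how cultures were separated, so a p-value reflects only the spread among these arrays, which may be technical.

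MDM2 is the ubiquitin ligase that marks p53 for degradation, so blocking it raises p53 protein. Granule proteins are made in waves as a granulocyte matures. Azurophil, or primary, granules form at the promyelocyte stage and hold myeloperoxidase and the serine proteases. Specific and gelatinase granules form later and hold other proteins. The transcripts of primary granule proteins are therefore abundant in immature myeloid cells and decline with maturation, and acute myeloid leukaemia cells often carry them.

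Values are log2 signals of arrays normalised together, and a difference of 1 is 2-fold. Array medians lay between 6.44 and 6.57, the smallest signals between 2.66 and 2.85 and the largest between 13.4 and 13.5. A gene is said to have risen or fallen when the Benjamini-Hochberg adjusted p of limma was under 0.05, with all 21448 probes in the adjustment. Each change is given with its standard error (SE) from that fit. As a check of the treatments, CDKN1A, the p53 target that encodes p21, rose 15.6-fold with RG7112 and 17.2-fold with HDM201, with adjusted p = 9.07e-08 and 2.28e-08. Arrays of replicates 1 to 3 stood apart from those of replicates 4 to 6, with 7.98% of probes past the threshold between them, and within-set values are given below. This split was taken from earlier results of these data, so tests between the sets describe it and are no independent evidence for it. Signals of RG7112 replicate 3 were less spread, with an interquartile range of 3.45 where the other 17 arrays had 3.70 to 3.91. For RNASE2, CST7 and CTSC, values without this array are given below. The mean over 11 myeloid markers, as the labelled cell type calls for, lay between 7.44 and 7.72 on the DMSO arrays, with 5 of the 11 below the array median, and no probe was matched to CD33. SPI1, one of the brightest of them, which encodes the myeloid factor PU.1, had a DMSO mean of 10.29, and the lowest gene mean was 3.61. The mean over 10 lymphocyte markers lay between 5.08 and 5.29 on the DMSO arrays, with 8 of the 10 below the array median.

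AZU1, PRTN3 and CTSG belong to the neutrophil serine protease family. AZU1 encodes azurocidin, an antimicrobial relative that lacks protease activity, PRTN3 encodes proteinase 3, and CTSG encodes cathepsin G. In the RefSeq annotation AZU1, PRTN3 and ELANE are consecutive protein-coding genes on chromosome 19, between PLPPR3 and CFD, while CTSG lies on chromosome 14 between CMA1 and GZMH. The 250 bases before the annotated start of each gene are shown for these 3 because AZU1 rose with both compounds, its neighbour PRTN3 fell with HDM201 and CTSG did not pass in any comparison. The sequences are from RefSeq, build GRCh38.p14: AZU1 at chr19:827587-827836 on the plus strand, PRTN3 at chr19:840749-840998 on the plus strand and CTSG at chr14:24576251-24576500 on the minus strand. Capitals mark matches on either strand to motifs of 4 factors of myeloid cells: PU.1 (GAGGAA), CEBP (TTGCNNAA), MYB (AACNGNC or AACGG) and RUNX (TGTGGT).
AZU1: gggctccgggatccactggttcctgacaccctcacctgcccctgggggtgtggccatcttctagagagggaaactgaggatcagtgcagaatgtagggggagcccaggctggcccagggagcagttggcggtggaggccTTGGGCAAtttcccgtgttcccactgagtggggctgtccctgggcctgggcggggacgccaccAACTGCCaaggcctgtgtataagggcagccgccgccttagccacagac
PRTN3: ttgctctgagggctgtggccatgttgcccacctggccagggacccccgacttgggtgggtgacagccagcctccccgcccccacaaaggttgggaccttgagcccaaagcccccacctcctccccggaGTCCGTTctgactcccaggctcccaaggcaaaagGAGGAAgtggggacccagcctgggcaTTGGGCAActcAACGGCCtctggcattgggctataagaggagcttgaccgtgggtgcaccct
CTSG: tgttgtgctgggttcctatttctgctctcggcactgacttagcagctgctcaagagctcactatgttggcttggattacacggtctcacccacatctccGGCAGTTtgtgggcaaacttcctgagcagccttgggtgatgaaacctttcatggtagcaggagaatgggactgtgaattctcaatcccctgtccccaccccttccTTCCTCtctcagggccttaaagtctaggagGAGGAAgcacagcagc

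The AZU1 and PRTN3 windows share the letters TTGGGCAA, a CEBP match read on the minus strand, at 111 to 104 bases before the start in AZU1 and 62 to 55 in PRTN3. The CTSG window held no CEBP match and 2 PU.1 matches, PRTN3 held 1 PU.1 match and AZU1 held 0. Each of these 3 windows held at least 1 MYB match, in PRTN3 as 2 pairs of overlapping matches, and none held the RUNX letters. Over 35114 windows of this length, 9.05% held the CEBP letters, 23.6% PU.1, 36% MYB and 11% RUNX. The E-box letters CANNTG, not capitalised, were in these 3 windows and in 61.8% of all windows, and 1 of them overlaps the MYB match of AZU1. RNASE2 also had a window, at chr14:20955237-20955486 on the plus strand, with 1 CEBP match (TTGCACAA) and 1 MYB match. The p53 response element, searched as a pair of half-sites with a spacer of at most 13 bases, was in none of the 4 windows and in 0.0256% of all windows. MPO, LYZ, SRGN, BPI and CST7 had no window here. Letter matches are descriptions of sequence and show no binding.

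AZU1 had the largest change of the 9 granule genes with either compound. Its signal ran from 10.78 to 10.92 in DMSO with a median of 10.89, from 11.54 to 11.73 with RG7112 (median 11.69) and from 11.63 to 11.99 with HDM201 (median 11.74). Every treated array lay above every DMSO array. AZU1 rose 1.72-fold with RG7112 (0.79 ± 0.07 SE, n = 6 per group, adjusted p = 2.54e-07 by limma) and 1.88-fold with HDM201 (0.91 ± 0.07, adjusted p = 2.14e-08). Within replicates 1 to 3 the changes were 0.79 and 0.91, and within replicates 4 to 6 they were 0.78 and 0.90. The 6 AZU1 signals of the DMSO group had an SD of 0.06.

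PRTN3, the next gene along the chromosome, was lower. Its DMSO signals ran from 9.86 to 10.60 (median 10.12), those with RG7112 from 9.49 to 10.04 (median 9.81) and those with HDM201 from 9.40 to 9.97 (median 9.83). The groups overlap, and DMSO replicate 3 was the highest array at 10.60. PRTN3 fell 1.33-fold with HDM201 (-0.41 ± 0.13 SE, adjusted p = 0.0310 by limma), and the difference with RG7112 was -0.34 ± 0.13 and did not pass (adjusted p = 0.0801). Leaving out DMSO replicate 2, 3 or 6 or HDM201 replicate 1 or 2 ended the HDM201 call (adjusted p 0.053 to 0.0877). The RG7112 difference passed without DMSO replicate 1 (adjusted p = 0.0479). The HDM201 change was -0.63 within replicates 1 to 3 (adjusted p = 0.0673) and -0.19 within replicates 4 to 6 (adjusted p = 0.253), and the RG7112 difference was -0.60 and -0.08.

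CTSG showed no difference past the threshold with either compound. The DMSO signals ran from 11.94 to 12.52 (median 12.26), with RG7112 from 12.19 to 12.37 (median 12.23) and with HDM201 from 12.21 to 12.43 (median 12.25). The treated arrays lay inside the DMSO range, and the DMSO arrays split by number: replicates 1 to 3 had a mean of 12.44 ± 0.07 (SD, n = 3) and replicates 4 to 6 a mean of 12.01 ± 0.11. The differences from DMSO were 0.03 (95% interval -0.17 to 0.23) with RG7112 and 0.05 (-0.15 to 0.25) with HDM201. Within replicates 1 to 3 they were -0.18 and -0.14, and within replicates 4 to 6 both were 0.24 or more, at 0.24 and 0.25. The difference between the sets did not pass (adjusted p = 0.698 for RG7112 and 0.599 for HDM201), except for RG7112 with array weights (adjusted p = 0.0375).

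The gene after ELANE, CFD, encodes complement factor D, a serine protease that myeloid cells also secrete. CFD rose 1.41-fold with RG7112 (0.49 ± 0.11 SE, adjusted p = 0.00213 by limma) and 1.48-fold with HDM201 (0.57 ± 0.11, adjusted p = 4.17e-04). PLPPR3, on the other side of AZU1, differed by 0.19 ± 0.10 and 0.11 ± 0.10 and did not pass. Measured along this stretch, the signals of AZU1 and CFD rose while PRTN3, between them, fell with HDM201. That PRTN3 call ended when any 1 of 5 arrays was left out. Of the 15 measured protein-coding genes next to any of the listed genes and not listed themselves, 1 rose and 3 fell in each comparison with DMSO. Of all probes 7.9% rose and 9.61% fell with RG7112, and 9.16% rose and 9.64% fell with HDM201. RNASE3, a close paralogue beside RNASE2, had no matched probe, so RNASE2 values may hold signal from it.

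**Figure D1:**
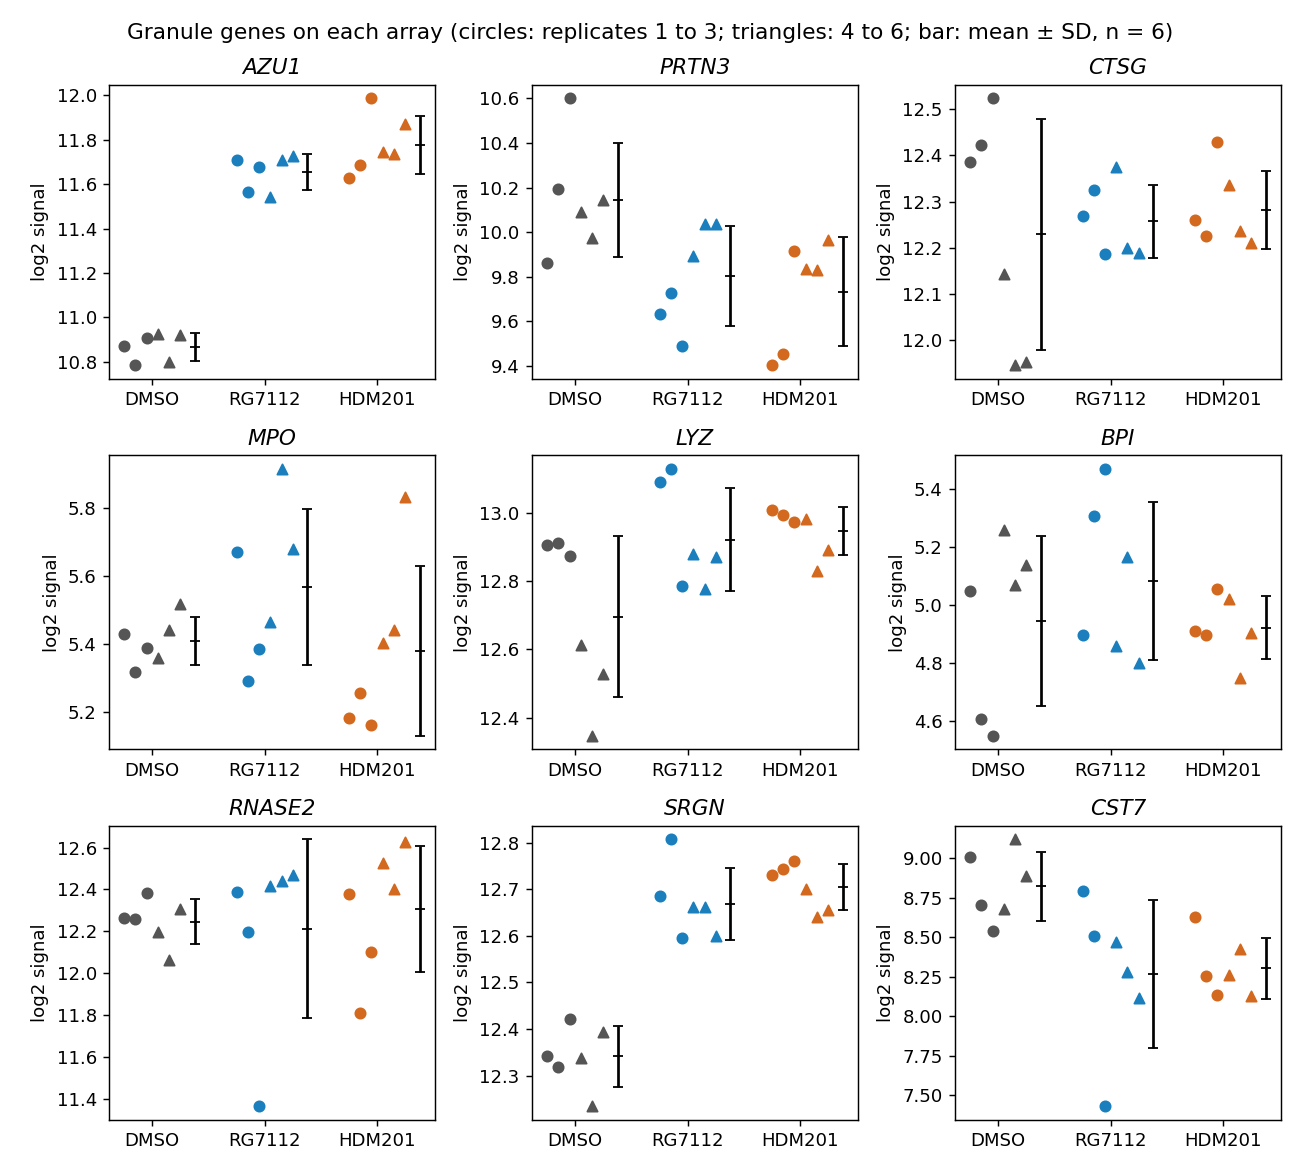
Log2 signal of the 9 granule genes on each of the 18 arrays, by treatment; circles are replicates 1 to 3, triangles replicates 4 to 6, and the bar is the mean ± SD of 6 arrays. AZU1 and SRGN are the genes whose treated arrays all lie above all DMSO arrays, and RG7112 replicate 3 is the low circle of RNASE2 (11.37) and CST7 (7.43).

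MPO encodes myeloperoxidase, the heme enzyme that makes hypochlorous acid in the phagosome. Its signal lay below the array medians in every group: from 5.32 to 5.52 in DMSO (median 5.41), from 5.29 to 5.92 with RG7112 (median 5.57) and from 5.16 to 5.83 with HDM201 (median 5.33). The groups overlap. MPO differed by 0.16 (95% interval -0.08 to 0.39) with RG7112 and by -0.03 (-0.26 to 0.21) with HDM201. Within replicates 1 to 3 the values were 0.07 and -0.18, and within replicates 4 to 6 they were 0.25 and 0.12.

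LYZ encodes lysozyme, which cleaves bacterial cell walls, and it is made by monocytes as well as granulocytes. The DMSO signals ran from 12.35 to 12.91 (median 12.74), with RG7112 from 12.78 to 13.13 (median 12.88) and with HDM201 from 12.83 to 13.01 (median 12.98). The DMSO arrays of replicates 4 to 6 (12.35 to 12.61) lay below every other array, while those of replicates 1 to 3 (12.87 to 12.91) lay among the treated arrays. The differences of 0.22 ± 0.10 SE with RG7112 (adjusted p = 0.126 by limma) and 0.25 ± 0.10 with HDM201 (adjusted p = 0.0881) did not pass. With the replicate sets as a term in the model the HDM201 difference passed (adjusted p = 0.0302, where 21.3% of all probes passed) and the RG7112 difference did not (0.0529, where 20.8% passed). Within replicates 4 to 6 alone LYZ passed for both compounds, at 0.35 (adjusted p = 0.0496) and 0.40 (0.0202), against 0.10 and 0.09 within replicates 1 to 3. No share of all probes is given for the fits within a set. The difference between the sets was -0.24 and -0.31 and did not pass (adjusted p = 0.850 and 0.820).

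BPI encodes the bactericidal protein that binds lipopolysaccharide. Its signals, too, lay below the array medians, from 4.55 to 5.26 in DMSO (median 5.06), from 4.80 to 5.47 with RG7112 (median 5.03) and from 4.75 to 5.05 with HDM201 (median 4.91). The groups overlap throughout, and BPI differed by 0.14 (95% interval -0.13 to 0.41) and by -0.02 (-0.29 to 0.25). Within replicates 1 to 3 the values were 0.49 and 0.22, and within replicates 4 to 6 they were -0.21 and -0.26.

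RNASE2 encodes the eosinophil-derived neurotoxin, a ribonuclease of eosinophil granules that neutrophils and monocytes also make. The DMSO signals ran from 12.07 to 12.38 (median 12.26) and the HDM201 signals from 11.81 to 12.63 (median 12.39). With RG7112 replicate 3 lay at 11.37 and the other 5 arrays between 12.20 and 12.47. RNASE2 differed by -0.03 (95% interval -0.37 to 0.30) with RG7112 and by 0.06 (-0.28 to 0.40) with HDM201. Within replicates 1 to 3 the RNASE2 values were -0.32 and -0.21, and within replicates 4 to 6 they were 0.25 and 0.33. In replicates 4 to 6 the treated arrays (12.40 to 12.63) lay above the DMSO arrays (12.07 to 12.31). Without RG7112 replicate 3 the RG7112 difference was 0.14 (adjusted p = 0.489 by limma).

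SRGN encodes serglycin, the proteoglycan core whose sulphated chains hold basic proteases and other cargo in granules. Its signal ran from 12.23 to 12.42 in DMSO (median 12.34), from 12.60 to 12.81 with RG7112 (median 12.66) and from 12.64 to 12.76 with HDM201 (median 12.72). No treated array overlapped a DMSO array. SRGN rose 1.25-fold with RG7112 (0.33 ± 0.06 SE, adjusted p = 8.24e-04 by limma) and 1.29-fold with HDM201 (0.36 ± 0.06, adjusted p = 2.15e-04). The changes were 0.34 and 0.38 within replicates 1 to 3 and 0.32 and 0.34 within replicates 4 to 6, and the RG7112 change missed the threshold within replicates 1 to 3 alone (adjusted p = 0.0948).

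CST7 encodes cystatin F, an inhibitor of cysteine cathepsins that reaches lysosome-related granules and acts on cathepsin C, the peptidase that activates the serine proteases. Its DMSO signals ran from 8.54 to 9.12 (median 8.79), with RG7112 from 7.43 to 8.79 (median 8.38) and with HDM201 from 8.13 to 8.63 (median 8.26). The groups overlap, and RG7112 replicate 3 (7.43) was the lowest array. CST7 fell 1.47-fold with RG7112 (-0.55 ± 0.17 SE, adjusted p = 0.0247 by limma) and 1.43-fold with HDM201 (-0.52 ± 0.17, adjusted p = 0.0332). Without RG7112 replicate 3 the RG7112 change was -0.39 (adjusted p = 0.0385) and the HDM201 adjusted p was 0.00294. Leaving out DMSO replicate 1 (adjusted p = 0.0502) or 5 (0.0608) ended the RG7112 call, as did a fit with only the 12 arrays compared in the model (0.0547). The HDM201 call ended without any of DMSO replicates 1, 5 and 6 or HDM201 replicates 2, 3, 4 and 6 (adjusted p 0.0543 to 0.0809). Both CST7 changes missed the threshold within replicates 1 to 3 alone (-0.51 with RG7112, adjusted p = 0.340, and -0.41 with HDM201, adjusted p = 0.491).

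**Figure D2:**
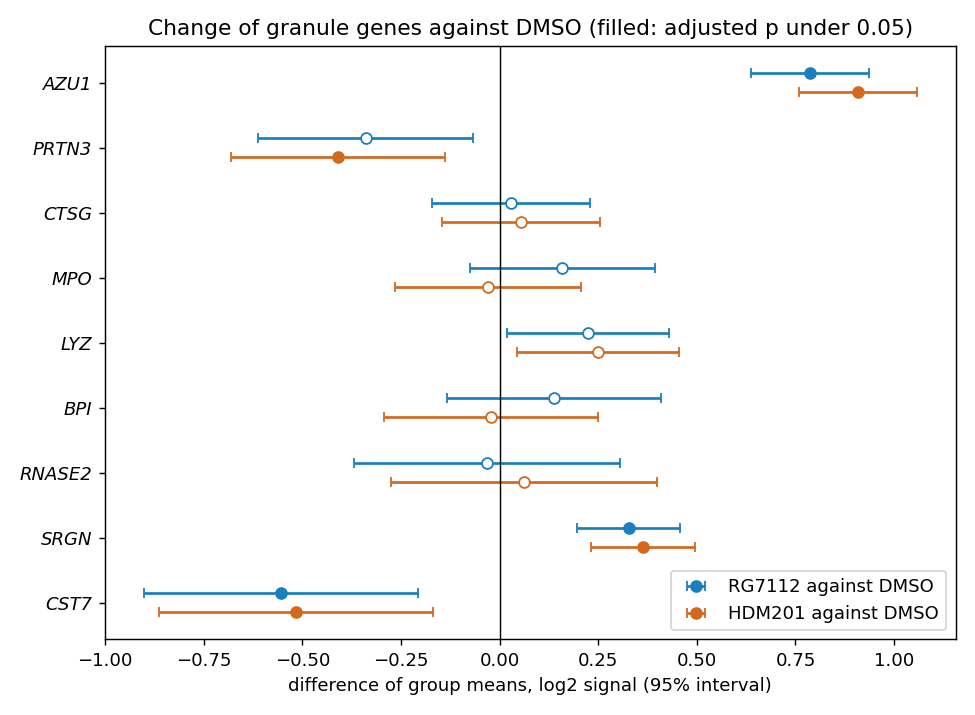
Difference of group means from DMSO on the log2 scale for the 9 granule genes, with 95% intervals from the linear model and 6 arrays per group; filled points have an adjusted p under 0.05. AZU1 (0.79 and 0.91) and SRGN (0.33 and 0.36) lie to the right of 0 for both compounds, and CST7 (-0.55 and -0.52) to the left.

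Counted over the 9 genes, RG7112 gave 2 that rose, 1 that fell and 6 that did not pass, where 17.5% of all probes passed (7.9% rose and 9.61% fell). HDM201 gave 2 that rose, 2 that fell and 5 that did not pass, where 18.8% of all probes passed (9.16% rose and 9.64% fell). Groups that do not overlap with higher treated arrays were found for 2 of the 9 genes in each comparison, against 4.29% of all probes with RG7112 and 6.63% with HDM201. Groups that do not overlap with lower treated arrays were found for 0 of the 9, against 5.61% and 6.92% of all probes. The median change of the 9 genes was 0.14 with RG7112 and 0.05 with HDM201, beside medians of 0.03 and 0.02 over all probes. The comparisons share their DMSO arrays, so their values are not independent. The 9 genes were chosen with earlier results of these data known, so their counts beside the shares of all probes are descriptive. Within primary granule contents AZU1 rose, PRTN3 fell with HDM201 and CTSG and MPO did not pass. The only fall among these, that of PRTN3, lost its call when any 1 of 5 arrays was left out.

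HDM201 was compared with RG7112 directly, at doses that differ. None of the 9 granule genes passed by limma, none had an unadjusted p under 0.05, and 0% of all probes passed, with 749 of them at an unadjusted p under 0.05. The groups overlapped for all 9 genes, and of all probes 0.042% had HDM201 arrays all above RG7112 arrays and 0.042% all below. AZU1 had the smallest p of the 9, with a difference of 0.12 (95% interval -0.03 to 0.27) and adjusted p = 0.991. The intervals of the 9 genes reached no further than -0.43 for BPI and 0.43 for RNASE2, and larger differences lie outside all 9 intervals.

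Between replicates 1 to 3 and 4 to 6, with the treatment groups in the model, 1 of the 9 genes passed, where 7.98% of all probes did (3.68% higher in replicates 1 to 3 and 4.3% lower). That gene was LYZ, higher by 0.22 ± 0.07 SE in replicates 1 to 3 (adjusted p = 0.0472 by limma). Omitting RG7112 replicate 3 or HDM201 replicate 4 kept the LYZ call. Omitting any other of the 18 arrays ended it (adjusted p 0.0576 to 0.0897), as did subtracting array medians (0.0861). The change with a compound did not differ between the sets past the threshold for any of the 9 genes by limma. Past the same adjusted threshold were 0.0373% of all probes for RG7112 and 0.149% for HDM201. At an unadjusted p under 0.05 were 4 of the 9 genes for RG7112 and 2 for HDM201. No share of all probes is given at the unadjusted threshold, so the 4 and 2 are descriptive. CTSG, BPI and RNASE2 had changes of opposite sign in the sets with both compounds, and MPO with HDM201. In DMSO, CDKN1A lay at 9.06 ± 0.10 (SD, n = 3) in replicates 1 to 3 and 7.41 ± 0.23 in replicates 4 to 6, and its part in the differences between sets was not tested.

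**Figure D3:**
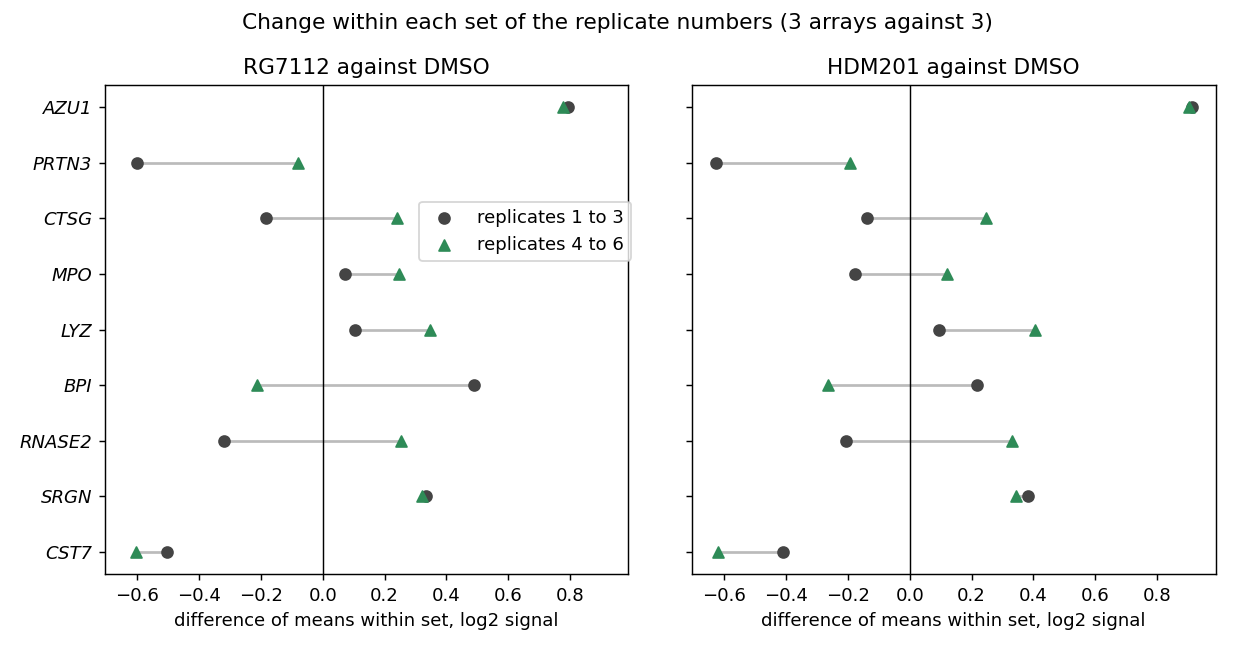
Change from DMSO on the log2 scale within replicates 1 to 3 (circles) and within replicates 4 to 6 (triangles), 3 arrays against 3, for each granule gene and compound. AZU1 and SRGN have nearly the same change in both sets, while PRTN3 ran from -0.63 to -0.19 with HDM201 and BPI from 0.49 to -0.21 with RG7112.

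For each gene that passed, the genes of most similar profile over the 18 arrays were found by the root mean square difference of mean-centred log2 signals. For AZU1 they were PLCB2 (0.137), a phospholipase of haematopoietic cells, ICOSLG (0.153), the ligand of the costimulatory receptor ICOS, and SLC43A2 (0.155), an amino acid transporter. For SRGN they were VPS39 (0.0738), a subunit of the tethering complex of late endosomes, UBXN1 (0.0758) and PYGL (0.0787), a glycogen phosphorylase. For PRTN3 they were DNAJA3 (0.147), PMS1 (0.155) and PABIR2 (0.158), and for CST7 HMGXB4 (0.171), HOOK3 (0.173) and DPYSL2 (0.182). None of these is a listed granule gene. Small distances are easier to reach for genes with a small spread.

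The wider granule programme was read from lists of genes by granule type, chosen with earlier results of these data known. Counts are read beside the shares of all probes, of which 7.9% rose with RG7112 and 9.16% with HDM201, and 9.61% and 9.64% fell. List counts at an unadjusted p under 0.05 have no such share here and are descriptive. The count of calls per list is followed by its range over the alternative settings and omitted arrays, among them filters that take dim probes, such as that of GZMA, out of the test. The passing examples described below are those whose calls held with both compounds when each of the 18 arrays was left out in turn. With HDM201 only, the rises of CTSO, CUX1 and CSF2RA and the falls of HMGA1 and EPCAM held in this way. Of these, CSF2RA (adjusted p = 0.251 by limma) and EPCAM (0.204) missed the threshold within replicates 4 to 6 alone. CUX1 missed it within each set alone. EPCAM was dim, with means of 4.32 in DMSO and 3.92 with HDM201, and the filters on dim probes removed it. Within 1 replicate set alone, with 3 arrays per group, some of the genes named missed the threshold. Of 18 measured other genes of azurophil granules, 6 rose and 1 fell with each compound (5 to 8 passed over the settings for each). FUCA1, a lysosomal fucosidase, rose 3.31-fold with RG7112 (1.73 ± 0.37 SE, adjusted p = 0.00245 by limma) and 4.10-fold with HDM201, and ARSA, arylsulfatase A, rose 2.50-fold and 2.59-fold. MAN2B1, a lysosomal mannosidase, rose 1.54-fold and 1.58-fold and CTSD, cathepsin D, 1.47-fold and 1.73-fold. FUCA1, ARSA, MAN2B1 and CTSD are lysosomal hydrolases that most cells make. PRSS57, a serine protease of azurophil granules, differed by 0.21 ± 0.12 and 0.12 ± 0.12 and did not pass.

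Of 19 specific granule genes 4 rose with RG7112 and 5 with HDM201, and none fell (2 to 4 and 2 to 5 over the settings). CHI3L1, a chitinase-like protein, rose 3.50-fold (1.81 ± 0.22 SE, adjusted p = 7.72e-06 by limma) and 3.95-fold (1.98 ± 0.22, adjusted p = 1.43e-06), and LRG1, a leucine-rich glycoprotein, rose 1.38-fold and 1.33-fold. In the DMSO group 15 of the 19 genes lay below the array median. Of 15 gelatinase granule and secretory vesicle genes 5 rose with RG7112 and 4 with HDM201, and none fell (1 to 6 and 1 to 7 over the settings). CXCR2, a chemokine receptor of neutrophils, rose 3.71-fold (1.89 ± 0.22, adjusted p = 3.86e-06) and 4.19-fold. CR1, a complement receptor, rose 2.41-fold and 3.08-fold. PADI4, on this list although it is an enzyme that citrullinates histones in the nucleus, rose 2.24-fold and 2.58-fold. HDM201 replicate 1 was the highest CR1 array at 7.71.

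None of the 9 granule genes of eosinophils, basophils and mast cells passed by limma, with 0 at an unadjusted p under 0.05 for RG7112 and 1 for HDM201. The largest difference was that of HDC, which makes histamine (0.22 ± 0.11 with RG7112 and 0.18 ± 0.11 with HDM201). Of 10 granule genes of cytotoxic lymphocytes, which share SRGN and CST7 with myeloid cells, GZMA, which encodes granzyme A, fell 2.38-fold (-1.25 ± 0.25 SE, adjusted p = 0.00129) and 2.50-fold (-1.32 ± 0.25, adjusted p = 5.93e-04), and the other 9 did not pass (0 to 1 and 0 to 2 over the settings).

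**Figure D4:**
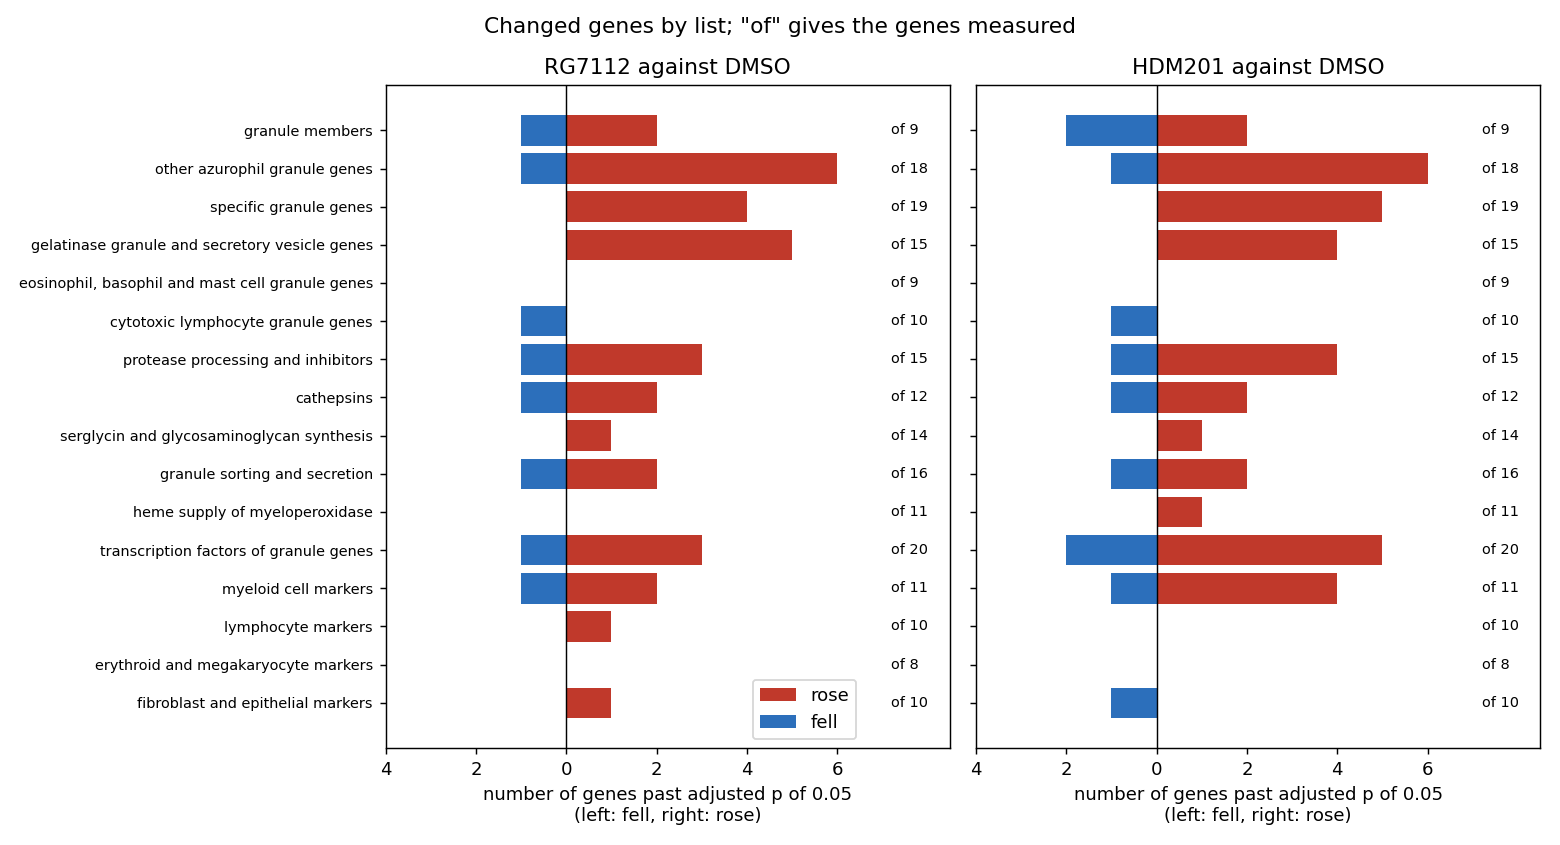
Number of genes per list with an adjusted p under 0.05 that rose (to the right) or fell (to the left) against DMSO, with the number measured at the right edge. The 10 granule symbols (9 measured) had 2 rises with each compound, and other azurophil granule genes 6 of 18.

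Inhibitors of granule proteases moved in both directions. SERPINB1, an inhibitor of neutrophil elastase, proteinase 3 and cathepsin G, rose 1.30-fold with RG7112 (0.38 ± 0.10 SE, adjusted p = 0.00786 by limma) and 1.41-fold with HDM201 (0.50 ± 0.10, adjusted p = 6.75e-04). CSTA, a cysteine protease inhibitor, rose 1.79-fold and 1.99-fold, and SERPINB9, an inhibitor of granzyme B, 1.58-fold and 1.85-fold. SLPI, a secreted inhibitor of elastase and cathepsin G, fell 1.80-fold and 1.87-fold. The SLPI change with RG7112 was -1.47 within replicates 1 to 3 and -0.23 within replicates 4 to 6. CTSC, which encodes cathepsin C, differed by -0.22 ± 0.09 with each compound and did not pass (adjusted p = 0.0793 and 0.0797), although no HDM201 array overlapped a DMSO array. The HDM201 difference of CTSC passed without RG7112 replicate 3 (adjusted p = 0.0113). Of the 15 measured genes of this list 3 rose and 1 fell with RG7112 and 4 rose and 1 fell with HDM201 (3 to 5 and 3 to 6 over the settings).

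Of 12 cathepsins 2 rose and 1 fell with each compound: CTSK rose 1.48-fold and 1.52-fold, and CTSV, a cathepsin L relative, fell 2.04-fold and 2.14-fold (1 to 4 and 2 to 4 passed over the settings). Of 14 genes of glycosaminoglycan synthesis, which builds the serglycin chains, only CHST15, a sulphotransferase acting on chondroitin sulphate, passed, and it rose 2.40-fold (1.26 ± 0.27 SE, adjusted p = 0.00187 by limma) and 2.76-fold. Over the settings 0 to 2 genes of this list passed with RG7112 and 0 to 3 with HDM201. Of 16 genes of granule sorting and secretion 2 rose and 1 fell with each compound, and RAB27A, a GTPase of granule docking, rose 1.55-fold and 1.68-fold (1 to 6 genes passed over the settings for each). Of 11 genes of heme synthesis, heme breakdown and peroxidase folding 0 passed with RG7112 by limma (1 at an unadjusted p under 0.05) and 1 rose with HDM201. That gene, HMOX1, encodes a heme oxygenase, which breaks heme down. The HMOX1 call was lost without any of 6 arrays (adjusted p up to 0.105), and with the replicate sets as a term HMOX1 passed with RG7112 too.

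Transcription factors of granule genes were measured for all 20 listed, of which 3 rose and 1 fell with RG7112 and 5 rose and 2 fell with HDM201 (2 to 7 and 3 to 7 passed over the settings). CEBPB, a factor of emergency granulopoiesis, rose 2.00-fold (1.00 ± 0.12 SE, adjusted p = 5.83e-06 by limma) and 2.03-fold. CEBPD rose 1.27-fold and 1.25-fold, and SPI1 1.27-fold and 1.30-fold. CEBPE, the factor of specific granule genes, differed by 0.04 ± 0.13 and 0.21 ± 0.13, and GFI1, a repressor needed in neutrophil precursors, by 0.06 ± 0.09 and 0.02 ± 0.09. None of these 4 values passed.

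Within replicates 1 to 3 alone the changes of CR1 (adjusted p = 0.349 with RG7112 and 0.127 with HDM201), SERPINB1 (0.270 and 0.0880), CTSK (0.271 and 0.134), CEBPD (0.360 and 0.648) and CFD (0.147 and 0.0514) missed the threshold of limma. So did those of CHST15 with RG7112 (0.0838) and LRG1 with HDM201 (0.117). Within replicates 4 to 6 alone LRG1 (0.241 and 0.0919), SLPI with RG7112 (0.231) and SPI1 with RG7112 (0.0685) missed it. All of these changes kept their direction in both sets.

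Of 11 myeloid markers 2 rose and 1 fell with RG7112 and 4 rose and 1 fell with HDM201 (3 to 5 and 4 to 5 passed over the settings), and with the replicate sets as a term 4 rose with RG7112. ITGAM, the integrin chain CD11b, rose 4.25-fold and 4.52-fold, and FLT3, a receptor of progenitors, fell 2.26-fold and 2.31-fold. The ITGAM change was 2.69 and 2.94 on the log2 scale within replicates 1 to 3 and 1.48 and 1.41 within replicates 4 to 6. That of FLT3 was -1.50 and -1.54 against -0.85 and -0.88. Of 10 lymphocyte markers 1 rose with RG7112 and none passed with HDM201 by limma (1 at an unadjusted p under 0.05). The gene that rose, CD79B, a chain of the B cell receptor complex, was lost without any of 10 of the 18 arrays (adjusted p up to 0.0985). RG7112 replicate 3, the highest CD79B array at 7.49, was among these. Of 8 erythroid and megakaryocyte markers none passed by limma, with 3 and 1 at an unadjusted p under 0.05. Of 10 fibroblast and epithelial markers 1 rose with RG7112 and 1 fell with HDM201. The one that rose, KRT8, a keratin, was lost without any of 5 arrays (adjusted p up to 0.0719). CD79B, KRT8 and HMOX1 are named here for these losses. The list mean of the erythroid and megakaryocyte markers lay between 5.46 and 5.77 in DMSO, 5.69 and 6.25 with RG7112 and 5.60 and 5.80 with HDM201, and its part in the granule results was not tested. Among these markers, HBA1 (7.99) and ITGA2B (7.57) were highest on RG7112 replicate 3. In bulk samples more transcript per cell and a larger share of cells that carry it cannot be told apart.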

How the data were processed

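RNA of OCI-AML3 cells on 18 arrays was labelled with an Affymetrix WT Pico kit, per the labels' protocols. The authors deposited log2 values made with oligo and its RMA method, per the submitters' processing notes. RMA corrects background, normalises quantiles and summarises probe sets. Their versions and genome build: not given in the sources used here. The number of arrays limits precision. Of 21448 probes 17709 carried 1 gene symbol, 0 several and 3739 none, from GEO's platform annotation. For a symbol with several probes the one with the highest mean was used. Of 216 genes on 15 further lists 197 were measured. Older symbols were matched through Entrez IDs and RefSeq.

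The model of limma 3.58.1 (R 4.3.3) had 1 mean for each group and used default empirical Bayes and Benjamini-Hochberg adjustment over all probes at 0.05. Differences between replicate sets used group means plus a set term, or means per group and set. The scripts were tested on simulated data. Named genes are the listed granule genes, CDKN1A and MDM2 as checks, PRSS57, RNASE3, CTSC, SERPINB1, CEBPE and GFI1, the 3 nearest profiles of each granule gene that passed, and from each list up to 3 passing genes with the largest changes (the largest difference where none passed). CFD and PLPPR3 were added as neighbours. Members and lists were chosen with earlier results of these data known. Deviations from the group means of same-numbered RG7112 and HDM201 arrays correlated at 0.117 to 0.440 over 6 pairs. Of the 6 HDM201 arrays 4 were nearest the RG7112 array of their own number. Set against the DMSO arrays, 5 of the 6 treated arrays were nearest their own number with each compound. The difference between the replicate sets stays in these deviations, and the labels do not say that the numbers pair cultures, so pairing is not established.

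Alternatives were another prior, array weights, filters on dim probes, other normalisations, subsets of arrays, a block for the replicate number, and omission of every array in turn.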

Additional observations from a re-analysis of the deposited data

Results flagged for a closer look

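A single array stood far from the rest of its group in 10 of 168 groups of 6 arrays examined, by Dixon's test of the gap to the nearest array over the range of the group. Chance alone would give about 1 in 20 for independent groups. The groups of different genes share the same arrays, so the number cannot be judged against that share. RG7112 replicate 3, the array with the less spread signals, accounts for 6 of the 10. It was low for RNASE2, at 11.4 against 12.2 to 12.5 on the other arrays of its group, for CTSC at 10.5 (10.8 to 11), for SERPINB9 at 8.94 (9.70 to 9.88) and for CUX1, a repressor of granule genes, at 9.16 (9.63 to 9.81). It was high for HBA1, a haemoglobin chain, at 7.99 (7.25 to 7.37) and for KRT8, a keratin, at 8.84 (7.80 to 8.18). HDM201 replicate 5 was high for RAB27B, a GTPase of secretion, at 6.22 (5.07 to 5.35) and for CUX1 at 9.97 (9.73 to 9.82). CR1 lay at 7.71 on HDM201 replicate 1 (6.22 to 6.75), and GFI1 at 10.6 on DMSO replicate 3 (10.3 to 10.4). Among the 27 groups of granule genes RNASE2 was the only such case.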

How the results depend on the processing

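The differences of AZU1, SRGN, PRTN3, CST7 and LYZ from DMSO kept their direction with both compounds under every alternative, and AZU1 passed in all of them. The number of granule genes passing was 3 with RG7112 and 4 with HDM201. It was 1 and 2 with only replicates 1 to 3, which leaves 3 arrays per group. No share of all probes stands beside the counts under other settings in this paragraph, so they are descriptive. With 1 array left out the number of granule genes passing ran from 2 to 3 and from 2 to 4. Between the sets it was 0 with array medians subtracted and 0 to 1 with 1 array left out. For the RG7112 change between sets it was 1 with array weights. With the replicate number as a block (replicate block) it was 4 and 5, because LYZ passed (adjusted p = 0.0490 and 0.0285), and it was 0 between the compounds. The block changed no other call of the granule genes, but with RG7112 it also gave a call to HMOX1 (0.00928) and CSF2RA (0.013). Same-numbered arrays correlated at 0.0168 to 0.365 (RG7112 and DMSO) and 0.0826 to 0.299 (HDM201 and DMSO), and 5 of 6 treated arrays were nearest their own number in each. LYZ also passed for HDM201 with a prior that follows the signal (0.0470) and with array weights (0.0489).

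Differences short of the threshold changed sign under some settings, and the cause was not tested. Under the setting array weights the values were 0.12 for RNASE2 with RG7112, -0.072 for CEBPE with RG7112, -0.060 for RNASE2 between the compounds, -0.070 for CST7 between the compounds, 0.058 for CST7 between the sets and 0.068 for MPO in the set difference of the RG7112 change. Under the setting array medians subtracted the values were -0.024 for CTSG with RG7112, -0.017 for CEBPE with RG7112, -0.018 for GFI1 with HDM201 and -0.013 for AZU1 in the set difference of the HDM201 change. Under the setting further quantile normalization the values were -0.036 for CEBPE with RG7112 and 0.0044 for AZU1 between the sets. Under the setting only replicates 1 to 3 the values were -0.18 for CTSG with RG7112, -0.016 for GFI1 with RG7112, -0.14 for CTSG with HDM201, 0.22 for BPI with HDM201, -0.21 for RNASE2 with HDM201, -0.015 for GFI1 with HDM201 and -0.010 for LYZ between the compounds. Under the setting only replicates 4 to 6 the values were -0.21 for BPI with RG7112, 0.25 for RNASE2 with RG7112, -0.056 for CEBPE with RG7112, 0.052 for EPCAM with RG7112, 0.12 for MPO with HDM201 and -0.017 for CST7 between the compounds. With 1 array left out the differences that changed sign ran from -0.082 to 0.030 for BPI between the sets, -0.042 to 0.060 for AZU1 in the set difference of the RG7112 change, -0.040 to 0.065 for SRGN in the set difference of the RG7112 change, -0.10 to 0.079 for AZU1 in the set difference of the HDM201 change, -0.17 to 0.51 for CST7 in the set difference of the RG7112 change, -0.10 to 0.040 for BPI with HDM201 and -0.029 to 0.088 for CTSG with RG7112. Others ran from -0.0029 to 0.11 for CTSG with HDM201, -0.0093 to 0.063 for GFI1 with HDM201, -0.077 to 0.11 for CEBPE with RG7112, -0.083 to 0.14 for RNASE2 with RG7112, -0.0049 to 0.066 for LYZ between the compounds and -0.075 to 0.19 for RNASE2 between the compounds. The rest ran from -0.13 to 0.14 for CST7 between the compounds, -0.12 to 0.076 for CST7 between the sets, -0.12 to 0.015 for MPO with HDM201, -0.049 to 0.0019 for AZU1 between the sets, -0.0039 to 0.049 for CTSG between the compounds and -0.0026 to 0.16 for RNASE2 with HDM201.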
